A study of Mus musculus with 12 samples.

Results

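Maternal diabetes was examined by comparing RNA of whole mouse embryos at embryonic day 10.5 from diabetic pregnancies with RNA of embryos of the same age from normal pregnancies. The comparison used 8 of the 12 arrays of the study: the 4 labelled as pools of control embryos and the 4 labelled as pools of embryos from diabetic pregnancies. The individual embryos with neural tube defects on the other 4 arrays took no part in the tests. All genes with annotation were considered, and a probe was kept where its detection p-value was under 0.05 on at least 4 of the 8 arrays.

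All animals were of the NOD strain, an inbred line that develops autoimmune diabetes spontaneously. Each pool held equal amounts of RNA from 4 embryos of 4 separate pregnancies, and 200 ng of total RNA was labelled with biotin per array. Dams counted as diabetic above 250 mg/dL of blood glucose, and the protocol gives diabetic dams an injection of 5 units of gonadotropin from pregnant mare serum before mating. Whether control dams were injected is not stated, so diabetes and the injection cannot be told apart. The labels also do not say whether embryos with defects entered the diabetic pools. Because the samples were whole embryos, fewer cells of a type and less RNA per cell cannot be told apart. A p-value here measures the spread between pools, each of which already averages 4 embryos.

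At this stage of mouse development the neural tube has normally just closed, the heart beats, primitive red cells from the yolk sac circulate and the limb buds and somites are forming. Embryos of diabetic mothers are exposed to raised glucose during these steps, and maternal diabetes is a known cause of neural tube and heart defects in mice and humans. Rapidly dividing embryos need a large supply of histones, which are made from replication-dependent genes during DNA synthesis. Those genes lie in clusters, lack introns, and give messages that end in a stem-loop in place of a poly(A) tail. Some of the same genes can also give polyadenylated messages.

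Among 7211 genes, 153 passed an adjusted p under 0.05 in limma (2.12%), and these are the genes called below. Of them, 63 were higher (0.874%) and 90 lower (1.25%) in the diabetic pools. Median scaling of the arrays called 24 higher and 147 lower, and the median over all genes moved from 0.01 to -0.06. Most changes were small: the median fold was 1.33 among called rises and 1.42 among called falls, and 93.2% of all genes differed by under 1.2-fold. All 22 called changes estimated at 2-fold or more were falls, 17 of them of replication-dependent histones, and 0 rises reached that size. Under a filter of detection on all 8 arrays the count of such falls was 17. H4f16 is counted among the 22, though it was below detection in all 4 diabetic pools and only a fall of at least 1.73-fold is shown. At 1.5-fold or more, 11 rises and 39 falls were called. The groups did not overlap for 677 genes (9.39%), 347 with the diabetic pools higher (4.81%) and 330 with them lower (4.58%), and 152 of the 153 called genes were among these, the exception being Snrnp48.

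The count rested on the number and choice of pools. It was 42 (9 higher, 33 lower) without control pools 3 and 4, which lacked the Y-linked signal described below. Leaving out control pool 1, 2, 3 or 4 gave 83, 58, 67 and 88 genes. Leaving out diabetic pool 1, 2, 3 or 4 gave 77, 122, 93 and 183, so the count did not always drop with fewer pools. The detected share of probes was 40.4 to 41.9% over the arrays. Pearson correlations across genes, which are not independent replicates, ran from 0.995 to 0.997 within the control group, from 0.991 to 0.996 within the diabetic group and from 0.991 to 0.995 between groups. The spread was larger among diabetic pools: the median SD over genes was 0.13 on the log2 scale against 0.10 in control pools. Of all genes, 65.7% had the larger SD in the diabetic pools. The root mean square distance of a pool from the mean of the others in its group was 0.14 to 0.17 in control pools. It was 0.15, 0.22, 0.16 and 0.21 in diabetic pools 1 to 4, so only diabetic pools 2 and 4 lay beyond the control range. Kdm5d, a Y-linked demethylase gene that marks male tissue, had log2 intensities of 8.19, 8.28, 4.60 and 4.42 in control pools 1 to 4 and 7.97, 7.22, 8.16 and 8.97 in diabetic pools 1 to 4. It was detected in 2 of 4 control pools and in all 4 diabetic pools.

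Histone genes made up most of the largest falls, and the regions just before 4 of them are shown because these genes were called lower together. Each line gives the 250 bases before the annotated start, from RefSeq on GRCm38.p6, 5′ to 3′ on the gene's own strand. Capitals mark the motifs ATTTGCAT (the octamer), TATAAA and CCAAT on either strand. H2bc11 and H2bc7 encode histone H2B, and H4c12 and H4c9 encode histone H4.
H2bc11 (chr13:22042948-22043197, plus strand): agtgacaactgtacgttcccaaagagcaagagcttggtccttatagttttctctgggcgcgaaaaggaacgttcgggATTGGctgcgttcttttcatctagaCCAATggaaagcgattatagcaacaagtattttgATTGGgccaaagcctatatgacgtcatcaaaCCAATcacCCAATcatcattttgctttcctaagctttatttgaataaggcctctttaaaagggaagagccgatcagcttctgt
H2bc7 (chr13:23574208-23574457, minus strand): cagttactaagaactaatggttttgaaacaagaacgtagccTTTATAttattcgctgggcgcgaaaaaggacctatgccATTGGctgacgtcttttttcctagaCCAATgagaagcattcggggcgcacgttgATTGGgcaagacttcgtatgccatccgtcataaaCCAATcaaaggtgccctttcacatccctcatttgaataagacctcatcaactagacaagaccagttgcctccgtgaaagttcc
H4c12 (chr13:21750554-21750803, minus strand): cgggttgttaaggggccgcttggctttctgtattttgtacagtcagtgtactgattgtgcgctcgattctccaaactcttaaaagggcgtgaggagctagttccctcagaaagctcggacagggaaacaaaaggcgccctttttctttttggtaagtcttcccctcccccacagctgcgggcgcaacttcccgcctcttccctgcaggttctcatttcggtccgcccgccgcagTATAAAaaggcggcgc
H4c9 (chr13:22041363-22041612, minus strand): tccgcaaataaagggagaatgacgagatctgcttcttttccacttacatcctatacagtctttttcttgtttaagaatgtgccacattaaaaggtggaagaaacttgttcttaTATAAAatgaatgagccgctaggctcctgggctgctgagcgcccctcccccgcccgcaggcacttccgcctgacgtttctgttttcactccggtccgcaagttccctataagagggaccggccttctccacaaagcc
Of the 27 histone genes called lower, 23 matched the RefSeq promoter table, with 24 promoters. CCAAT was present in 10 of 10 promoters of H2B genes called lower and in 2 of 9 of H4 genes, against 33.8% of all 32851 promoters of the table. TATAAA was present in 4 of 10 and 6 of 9, against 12.4%, and the octamer in 5 of 10 and 0 of 9, against 526 of all 32851. In the table's full windows of 300 bases, which run past the start, TATAAA was present in 8 of 9 H4 promoters and 13.6% of all, the octamer in 1.74% of all and CCAAT in 37.4% of all. Among the 18 promoters of histones that were not called, 17 held CCAAT, 6 TATAAA and 4 the octamer, so these letters were not limited to the genes that fell. A match here is a description of the sequence, not of binding.

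Replication-dependent histone genes supply the proteins that package new DNA. Whether the array read their stem-loop messages, their polyadenylated messages or both was not tested. The differences below are therefore of array signal, not of all histone messages. Of 47 measured genes, 27 were called lower (the share of all genes called lower was 1.25%), 2 were called higher and 18 were not called, with a list median of -0.68 against 0.01 over all genes. The falls ran from -0.50 to -1.73 with a median of -1.15. That median is the value of H2bc3, which was detected in 2 of 4 diabetic pools, so it is inexact. H2bc11 had log2 intensities of 10.51, 10.62, 10.61 and 10.48 in control pools 1 to 4 and 8.43, 8.97, 8.96 and 8.96 in diabetic pools 1 to 4. The lowest control pool lay 1.51 above the highest diabetic pool, and diabetic pool 1 was the lowest of all. The difference was -1.73 ± 0.12 (SE, n = 4 per group, limma adjusted p = 8.70e-06), a 3.31-fold fall.

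The classes differed in how many members were called. Among the core histones, 10 of 10 measured H4 genes and 10 of 12 H2B genes were called lower, against 4 of 9 H3 genes and 1 of 13 H2A genes. The classes also differed in signal: ranked by mean intensity among all 7211 genes, the median percentile was 33.0 for H4, 59.4 for H2B, 85.7 for H3 and 98.1 for H2A. Of the 18 histone genes that were not called, 13 lay above the 95th percentile, and of the 27 called lower 0 did. The part of signal level in the class difference was not tested. H4c12 read 6.08, 6.04, 6.46 and 6.33 in diabetic pools 1 to 4, against 7.87, 7.94, 7.81 and 7.89 in control pools 1 to 4. Its groups lay 1.34 apart at their nearest, and the control pools spanned only 0.13. Further probes of H4c12, H4c18 and H4c6 gave -1.73, -1.73, -1.43 and -1.21, against -1.65 to -1.21 at the probes used. Probes of other genes disagreed in size: a further probe gave -0.18 for H2bc21 (-1.02 at the probe used), -0.53 for H2bc6 (-1.61), -1.70 for H2bc12 (-0.55) and -0.51 for H4f16, whose probe used gave only a bound. H2bc18 was below detection in all 4 diabetic pools and detected in all 4 control pools, at least 2.58-fold lower. H4f16 was likewise at least 1.73-fold lower. These bounds hold only for the probe, background correction and offset used. Under alternatives the differences of H2bc18 and H4f16 were as small as -0.99 and -0.60. Both genes passed the detection filter through the control pools alone, yet they are counted among the genes called lower. Their calls were lost in the authors' value table.

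Genes of the other classes were called lower too. H3c1, a gene of histone H3, had values of 9.96, 10.07, 10.05 and 9.95 in control pools 1 to 4 and 9.19, 9.22, 9.30 and 9.48 in diabetic pools 1 to 4, a difference of -0.71 ± 0.08 with no overlap between groups. H2ac19, the H2A gene called lower, differed by -0.81 ± 0.11 (limma adjusted p = 0.00181), and lost its call with all 12 arrays in 1 fit. H1f5, which encodes a linker histone that binds between nucleosomes, fell by 2.57-fold, and lost its call with all 12 arrays in 1 fit. H1f1 differed by -0.89 ± 0.14 but was detected in only 1 of 4 diabetic pools, so its size is inexact, and it lost its call under 3 of 24 alternatives, the authors' value table among them. Family members are close in sequence, so a probe may read several copies.

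Of the 27 genes called lower, 22 lie on chromosome 13, 4 on chromosome 3 and 1 on chromosome 6 by RefSeq names (GRCm38.p6). The pools differed in the depth of the fall. Diabetic pool 1 held the lowest diabetic value for 25 of the 27, and averaged over the 27 genes diabetic pools 1 to 4 lay at -1.38, -1.13, -1.03 and -1.02 relative to control. The other 63 genes called lower did not follow that order, with means of -0.56, -0.58, -0.50 and -0.49.

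The histone genes called higher were H1f2 and H2bc4. H1f2, a linker histone gene, read 10.87, 10.65, 10.98 and 10.85 in diabetic pools 1 to 4, against 10.43, 10.40, 10.40 and 10.36 in control pools 1 to 4. All diabetic pools lay above all control pools, by 0.44 ± 0.08 (limma adjusted p = 0.0141), and a further probe of the gene gave 0.42. H2bc4 differed by 0.37 ± 0.08 (adjusted p = 0.0331), and its call was lost under 12 of 25 alternatives. Of the genes that handle histone messages 0 of 11 measured were called, with a median of -0.06, and Npat, the coactivator of histone transcription, differed by -0.14 ± 0.12. Replacement histones, which are made outside DNA synthesis and were grouped after the values were seen, had 0 of 9 called.

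The cell cycle lists held 0 called genes. Of 26 measured DNA replication genes, which include the helicase subunits and polymerases, 0 were called, with a median of -0.0014. The smallest p belonged to Ccne2, the cyclin E2 gene, at -0.35 (adjusted p = 0.0686). Of 22 mitosis genes 0 were called, with a median of -0.05, and Aurkb, a mitotic kinase gene, differed by 0.16.

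**Figure D1:**
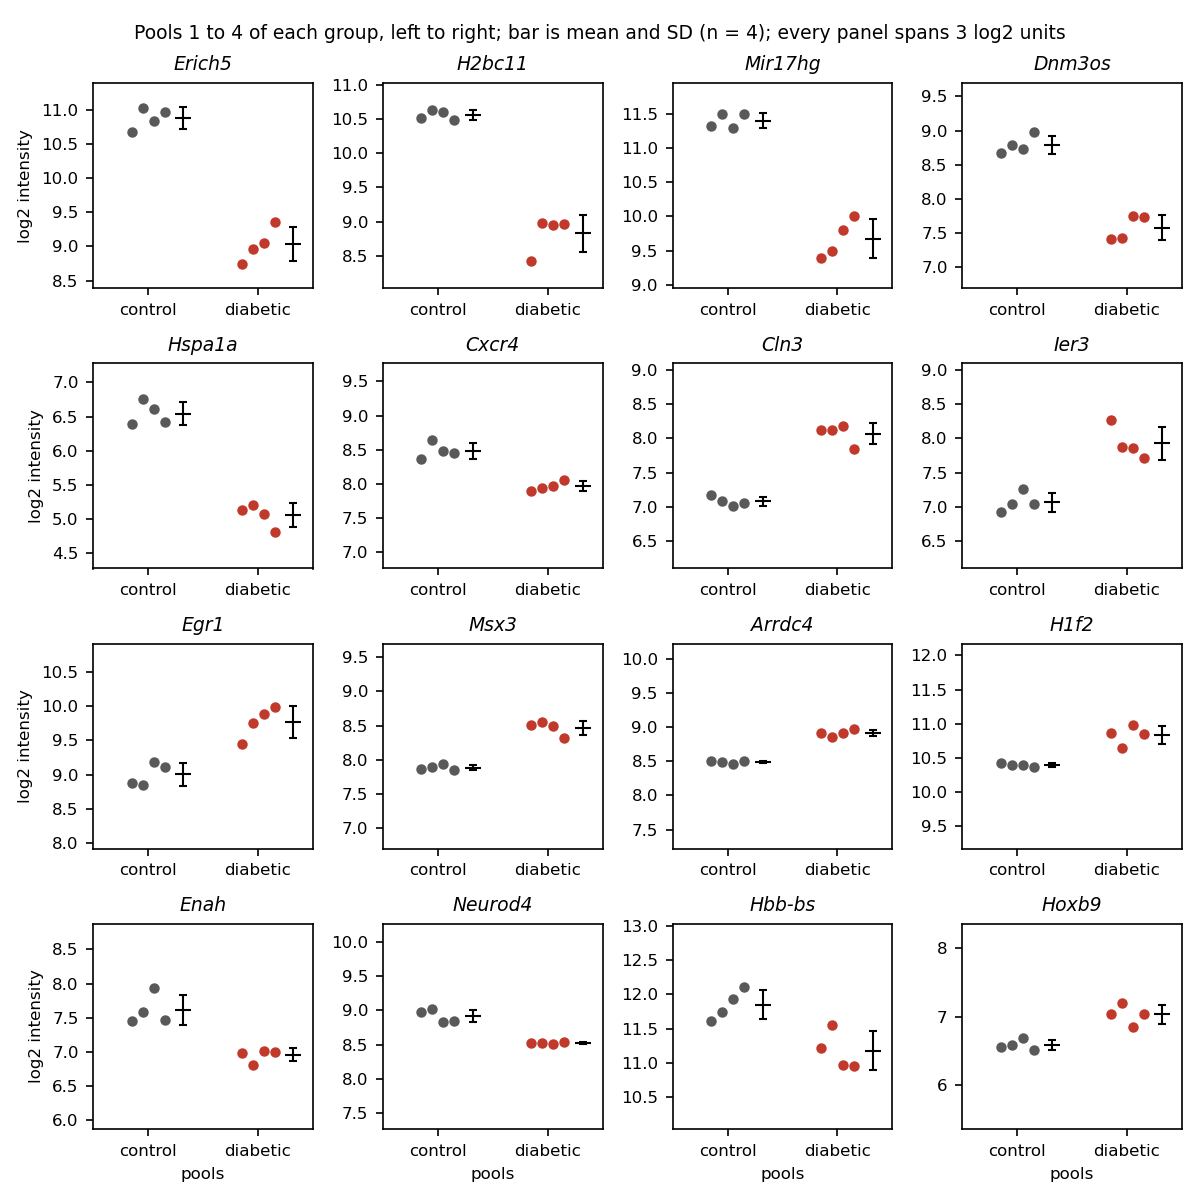
Log2 intensity of 16 genes in control pools 1 to 4 (grey) and diabetic pools 1 to 4 (red), with the mean and SD of each group (n = 4) at the right of its points. Every panel spans 3 log2 units, so the separation of H2bc11, Erich5 and Mir17hg can be set beside the smaller shifts of Arrdc4 and Neurod4.

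Noncoding transcripts included further large falls. MicroRNAs act as short guides that direct repression of messages matching their seed, bases 2 to 8 of the mature sequence. The host transcripts below carry microRNAs in their gene bodies, and the sequences are shown to identify what those hosts encode. The array measured the host transcripts and not the microRNAs. Mature sequences are from RefSeq on GRCm38.p6, 5′ to 3′, with the seed in capitals.
miR-92a-3p (in Mir17hg, chromosome 14): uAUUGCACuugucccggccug
miR-199a-3p (in Dnm3os, chromosome 1): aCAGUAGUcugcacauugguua
miR-214-3p (in Dnm3os, chromosome 1): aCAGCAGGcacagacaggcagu
miR-15a-5p (in Dleu2, chromosome 14): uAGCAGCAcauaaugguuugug
miR-16-5p (in Dleu2, chromosome 14): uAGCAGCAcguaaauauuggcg
The miR-15a and miR-16 sequences share the seed AGCAGCA, while the others have seeds of their own.

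Mir17hg hosts the miR-17-92 cluster, known for promoting proliferation and for roles in heart and skeletal development. Of that cluster, only miR-92a-1 sequences lay within the RefSeq interval of Mir17hg used here, so its other members are not shown. Mir17hg had log2 intensities of 11.32, 11.49, 11.30 and 11.50 in control pools 1 to 4 and 9.40, 9.49, 9.80 and 10.01 in diabetic pools 1 to 4. The groups lay 1.29 apart at their nearest. The difference was -1.73 ± 0.12 (limma adjusted p = 1.29e-05) and the call held under all 25 alternatives run. Dnm3os, an antisense transcript needed for normal skeletal growth in mice, read 7.41, 7.43, 7.75 and 7.74 in diabetic pools 1 to 4, against 8.67, 8.79, 8.73 and 8.98 in control pools 1 to 4. The groups did not overlap, the difference was -1.21 ± 0.10, and a further probe gave a smaller -0.40; the call was lost with all 12 arrays in 1 fit. Mir99ahg, another host transcript, differed by -0.72 ± 0.09, with -0.31 at a further probe.

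Dleu2 differed by -0.44 ± 0.08 (limma adjusted p = 0.0141) and was detected in 2 of 4 diabetic pools, so the size of its fall is inexact, and 7 of 24 alternatives lost the call. Snhg12, a host of small nucleolar RNAs, had values of 8.87, 8.79, 8.85 and 8.74 in control pools 1 to 4 and 8.46, 8.41, 8.51 and 8.29 in diabetic pools 1 to 4. Its groups did not overlap, and 7 of 25 alternatives lost the call. Of the 10 measured members of the noncoding host list 3 were called lower (1.25% of all genes), with a median of -0.18. Over all 121 genes with an lncRNA biotype, a grouping chosen after the values were seen, 11 were called lower (9.09%, against 1.25% of all genes) and 3 higher (0.874% of all genes), with a median of -0.01.

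Erich5, whose product is rich in glutamate and little characterised, showed the largest called fall, at 10.67, 11.03, 10.83 and 10.97 in control pools 1 to 4 and 8.75, 8.97, 9.05 and 9.35 in diabetic pools 1 to 4. The highest diabetic pool lay 1.32 below the lowest control pool. The difference was -1.85 ± 0.12 (95% interval -2.11 to -1.58, limma adjusted p = 8.70e-06), and the call held under all 25 alternatives. Hspa1a, a stress-inducible chaperone gene, read 5.14, 5.21, 5.08 and 4.81 in diabetic pools 1 to 4, against 6.40, 6.75, 6.61 and 6.42 in control pools 1 to 4. It was detected in only 2 diabetic pools, and its difference of -1.49 ± 0.11 is therefore inexact. Of 21 measured heat shock genes, Hspa1a was called and 20 were not, with a median of -0.08. Dnajb1, a co-chaperone gene, differed by -0.25 (adjusted p = 0.229).

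Few genes of the stress lists outside heat shock were called. Of 17 endoplasmic reticulum and amino acid stress genes, Herpud1, which acts in disposal of misfolded proteins, was called lower at -0.35 ± 0.07, with 11 of 25 alternatives losing the call. The list median was -0.12, and Dnajb9 (-0.48, adjusted p = 0.0739) and Ddit3 (-0.35, adjusted p = 0.144) did not pass. Of the 17 differences 14 lay below 0. At an unadjusted limma p under 0.05, 6 of the 17 were lower and 1 higher, against 502 lower of all 7211 genes. Of 21 antioxidant genes Nqo1, a quinone reductase gene, was called lower at -0.46 ± 0.09, lost under 9 of 25 alternatives, while the list median was 0.05. Nfe2l2, which encodes the transcription factor NRF2 that induces such genes, differed by -0.23 (adjusted p = 0.0895). Of 19 p53 target and cell death genes 0 were called, with a median of 0.08.

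**Figure D2:**
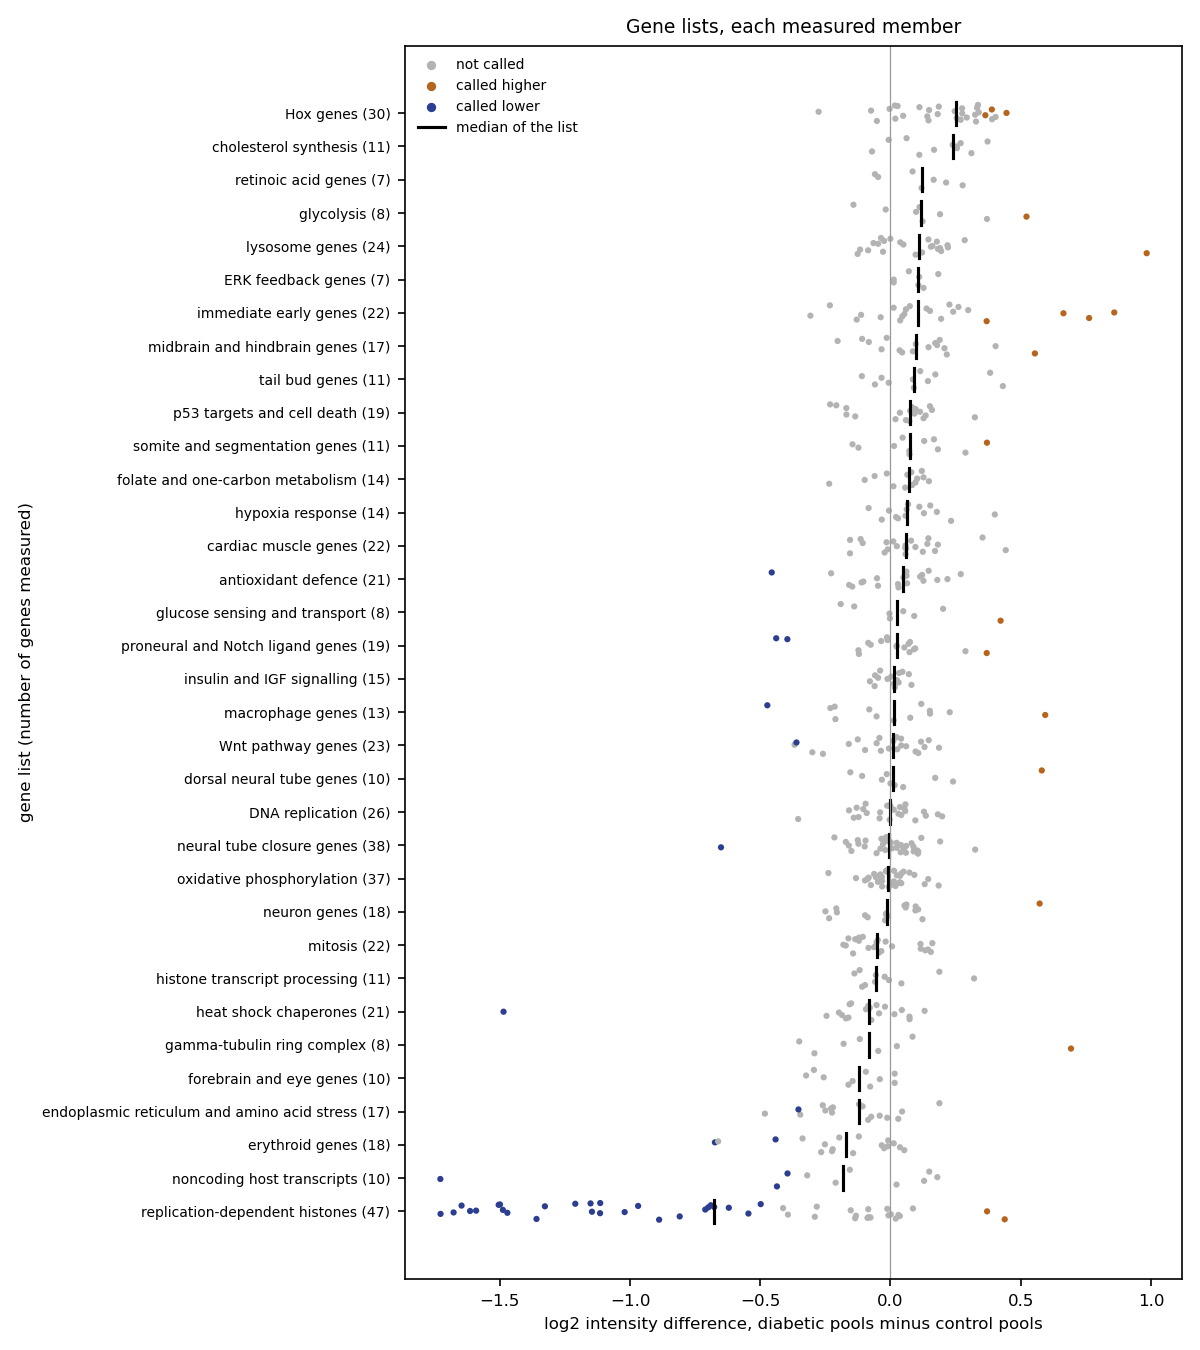
Log2 intensity difference between diabetic and control pools (x axis) for every measured member of 34 gene lists (y axis, number measured in brackets), ordered by list median (black bar). The histone list alone has a median below -0.2, at -0.68, and the Hox list has the highest at 0.25.

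Immediate early genes are switched on within minutes by growth factors, stress or handling, without new protein synthesis. Of 22 measured, 4 were called higher (the share of all genes called higher was 0.874%) and 0 lower, with a median of 0.11 against 0.01 over all genes. Ier3, an early gene linked to survival signalling, had values of 6.92, 7.04, 7.26 and 7.05 in control pools 1 to 4 and 8.27, 7.87, 7.85 and 7.71 in diabetic pools 1 to 4. All diabetic pools lay above all control pools, and diabetic pool 1 was the highest. The difference was 0.86 ± 0.12 (limma adjusted p = 0.00239), and the call was lost with all 12 arrays in 1 fit. Egr1, a zinc finger transcription factor gene, read 9.44, 9.75, 9.88 and 9.98 in diabetic pools 1 to 4, against 8.87, 8.85, 9.18 and 9.11 in control pools 1 to 4. The groups were separate but diabetic pool 1 lay closest to the controls. The difference was 0.76 ± 0.12 (adjusted p = 0.00700), and the call was lost with all 12 arrays in 1 fit and without diabetic pools 2 and 4. Ier2 differed by 0.66 ± 0.10 and was detected in only 2 of 4 control pools, so its size is inexact. Atf3, a stress-induced factor gene, differed by 0.37 ± 0.08 and lost its call under 18 of 25 alternatives.

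Fos and Jun, the best known early genes, were not called. Fos, named after its values were seen, had values of 7.69, 8.12, 8.91 and 8.65 in control pools 1 to 4 and 7.92, 8.81, 8.17 and 8.32 in diabetic pools 1 to 4. The groups overlapped across most of their range, and the difference was -0.04 (95% interval -0.58 to 0.50). Jun differed by 0.15 (-0.15 to 0.46) and Junb by 0.30 (adjusted p = 0.184). The ERK feedback genes, which growth factor signalling induces, had 0 of 7 called and a median of 0.11.

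In the lists of sugar and lipid metabolism few genes were called. Arrdc4, an arrestin-like gene induced by glucose through carbohydrate-sensing factors, read 8.92, 8.85, 8.91 and 8.98 in diabetic pools 1 to 4, against 8.51, 8.49, 8.46 and 8.50 in control pools 1 to 4. The control pools spanned 0.05 and the diabetic pools 0.12, with no overlap. The difference was 0.42 ± 0.06 (limma adjusted p = 0.00380), lost without control pools 3 and 4. It was the 1 gene called among 8 measured of the glucose sensing and transport list, whose median was 0.02. Of 8 glycolysis genes Eno2, a neuronal enolase gene, was called higher at 0.52 ± 0.12, lost under 14 of 25 alternatives, and the list median was 0.12. No gene was called among 14 hypoxia genes (median 0.06), 15 insulin and IGF genes (0.01), 37 oxidative phosphorylation genes (-0.01) or 14 folate and one-carbon genes (0.07). Of 11 cholesterol synthesis genes 0 were called in limma, with 4 higher at an unadjusted p under 0.05 (7.56% of all genes were higher at that p, and 14.5% differed in either direction), a median of 0.24, and Mvd at 0.37 (adjusted p = 0.0588).

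Cln3, mutated in a lysosomal storage disease of children, showed the largest called rise. Its values were 7.18, 7.08, 7.01 and 7.06 in control pools 1 to 4 and 8.12, 8.12, 8.18 and 7.84 in diabetic pools 1 to 4. The groups lay 0.66 apart at their nearest. The difference was 0.98 ± 0.08 (95% interval 0.80 to 1.17, limma adjusted p = 4.45e-05), and the call held under all 25 alternatives. Of 24 lysosome genes Cln3 alone was called, with a list median of 0.11, and Naglu, which encodes an enzyme of heparan sulfate breakdown, differed by 0.28 (adjusted p = 0.131). Mzt1, a small subunit of the gamma-tubulin complex that nucleates microtubules, read 9.36, 9.50, 9.62 and 9.26 in diabetic pools 1 to 4, against 8.77, 8.83, 8.67 and 8.69 in control pools 1 to 4. It differed by 0.69 ± 0.09 with no overlap, while the other 7 measured members of that complex were not called and the list median was -0.08. The call of Mzt1 was lost with all 12 arrays in 1 fit.

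**Figure D3:**
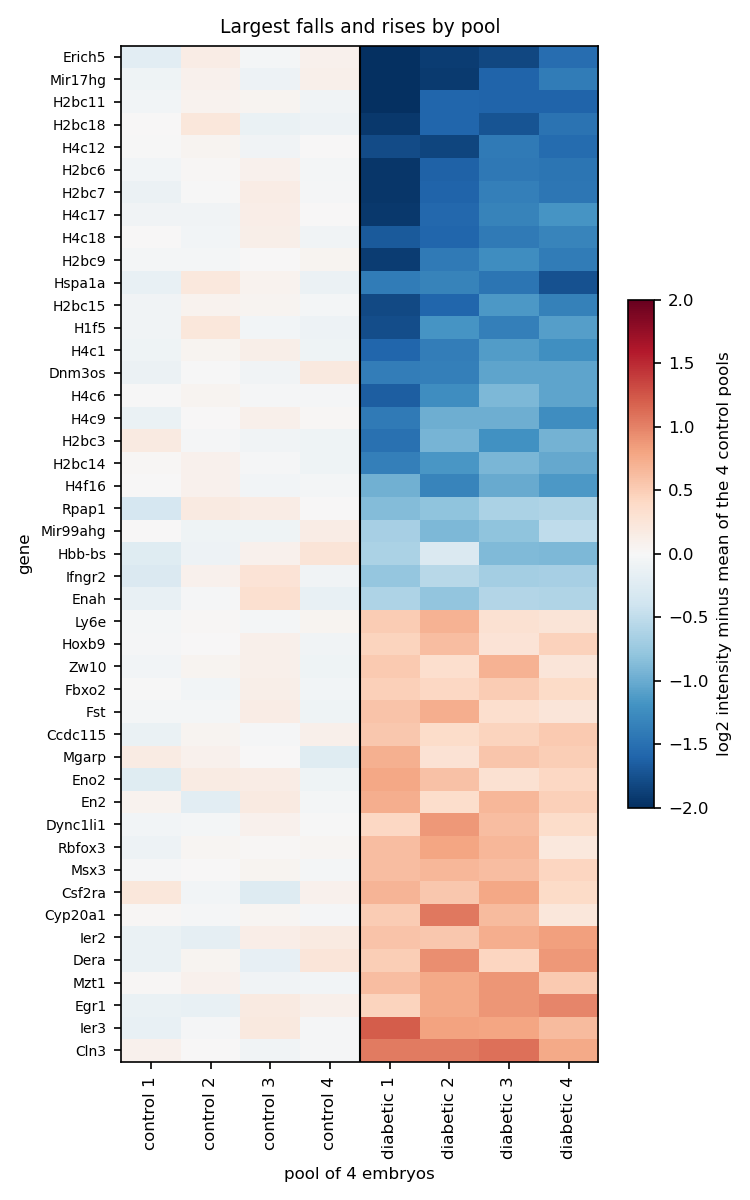
Log2 intensity minus the mean of the 4 control pools (colour, from -2 to 2) for the largest falls and rises named by rule (rows), in each of the 8 pools (columns). Most histone rows are deepest in diabetic pool 1, while the rises from Ly6e to Cln3 are spread over the 4 diabetic pools.

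Few genes of the neural tube lists were called. Enah encodes an actin regulator whose loss, with that of its relatives, disturbs neural tube closure in mice. It had values of 7.46, 7.58, 7.93 and 7.47 in control pools 1 to 4 and 6.99, 6.82, 7.02 and 7.0 in diabetic pools 1 to 4. Control pool 3 was the highest and diabetic pool 2 the lowest. The difference was -0.65 ± 0.10 (limma adjusted p = 0.00810), but further probes gave 0.08 and -0.11, and 3 of 25 alternatives lost the call. It was the 1 gene called of 38 measured neural tube closure genes, whose median was -0.0048; Cfl1, an actin-severing factor gene, differed by 0.33 (adjusted p = 0.157).

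Msx3, a homeobox gene restricted to the dorsal neural tube, read 8.50, 8.55, 8.49 and 8.32 in diabetic pools 1 to 4, against 7.86, 7.89, 7.94 and 7.85 in control pools 1 to 4. The groups lay 0.38 apart at their nearest. The difference was 0.58 ± 0.07 (limma adjusted p = 8.75e-04), with 0.16 and 0.38 at further probes, and the call was lost with all 12 arrays in 1 fit. The other 9 measured dorsal genes were not called (list median 0.01). En2, which marks the midbrain-hindbrain boundary, differed by 0.55 ± 0.10 (lost under 7 of 25 alternatives), the 1 call among 17 midbrain and hindbrain genes (median 0.10). The forebrain and eye list had 0 of 10 called and a median of -0.12, with Fezf2, a forebrain regulator gene, at -0.32 (adjusted p = 0.119).

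Proneural factors commit progenitors to become neurons. Neurog2 had values of 7.73, 7.58, 7.81 and 7.73 in control pools 1 to 4 and 7.38, 7.30, 7.30 and 7.11 in diabetic pools 1 to 4, and Neurod4, expressed in newly committed cells, read 8.52, 8.52, 8.51 and 8.54 in diabetic pools 1 to 4, against 8.98, 9.02, 8.83 and 8.84 in control pools 1 to 4. Neither gene overlapped between groups, and the 4 diabetic pools of Neurod4 spanned 0.04. The differences were -0.44 ± 0.08 and -0.40 ± 0.07 (limma adjusted p = 0.0175 and 0.0114), with -0.21 at a further probe of Neurog2, and 7 and 4 of 25 alternatives lost the calls. Cbfa2t3, which encodes a corepressor that acts with proneural factors, rose by 0.37, lost under 14 of 25 alternatives. Of 19 measured list members 2 were called lower (1.25% of all genes), 1 higher and 16 not, and the median was 0.02. Among 18 neuron genes Rbfox3, a neuronal splicing factor gene, was called higher (0.57 ± 0.11; 12 of 25 alternatives lost it), while Map2 (-0.21) and Dcx (-0.24), of the neuronal cytoskeleton, did not pass. Gad2, which makes the transmitter GABA, was at least 1.09-fold lower, with no diabetic pool above detection, and lost its call under 9 of 23 alternatives. It passed the detection filter through the control pools alone, and its mean signal was the lowest of all genes tested.

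Hox genes pattern the trunk along the head-to-tail axis. Of 30 measured, 3 were called higher (0.874% of all genes) and 0 lower, 26 differences were above 0 and the median was 0.25, or 0.19 under median scaling, which called 0 of them. Hoxb9 had values of 6.56, 6.59, 6.69 and 6.51 in control pools 1 to 4 and 7.03, 7.20, 6.86 and 7.04 in diabetic pools 1 to 4, with no overlap, and differed by 0.45 ± 0.08 (limma adjusted p = 0.0185). Hoxb4 (0.36 ± 0.07) and Hoxc9 (0.39 ± 0.09) were called too, and 9, 10 and 15 of 25 alternatives lost the calls of Hoxb9, Hoxb4 and Hoxc9. Cdx2, a tail bud gene that acts upstream of Hox genes, was low in control pools 3 and 4, at 7.07, 7.22, 6.50 and 6.56 in control pools 1 to 4 and 7.38, 6.99, 7.28 and 7.42 in diabetic pools 1 to 4. It was not called (adjusted p = 0.232), nor was any of 11 tail bud genes. Meox1, a somite gene, rose by 0.37 among 11 somite genes, of which 10 were not called, and lost its call under 13 of 25 alternatives. Retinoic acid genes had 0 of 7 called, with a median of 0.12.

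Markers of the tissues of a whole embryo were measured, among them 22 cardiac, 18 erythroid, 18 neuron and 11 somite genes. Among 18 erythroid genes 2 were called lower (1.25% of all genes), with a median of -0.17, and this list varied among control pools too, with mean deviations of -0.21 to 0.16 from the control mean, against -0.35 to -0.04 in diabetic pools. Hbb-bs, an adult beta globin gene, had values of 11.61, 11.75, 11.93 and 12.10 in control pools 1 to 4 and 11.21, 11.56, 10.97 and 10.96 in diabetic pools 1 to 4. Diabetic pool 2 came within 0.05 of control pool 1. The difference was -0.67 ± 0.14 (limma adjusted p = 0.0331), with -0.61 to -0.74 at 5 further probes; 11 of 25 alternatives lost the call. The embryonic globin genes, made by primitive red cells, were not called: Hbb-bh1 differed by 0.01 (95% interval -0.13 to 0.15), Hbb-y by -0.01 (-0.15 to 0.14) and Hba-x by -0.03 (-0.21 to 0.14), all with log2 intensities above 14 and at signal percentiles of 99.7 or higher among all genes. Whether probes this bright were saturated was not tested. What part the number of red cells takes in the fall of Hbb-bs was not tested.

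Macrophage markers split. Mrc1, a scavenger receptor gene of tissue macrophages, differed by -0.47 ± 0.09 and Csf2ra, a growth factor receptor gene, by 0.59 ± 0.12, the median of 13 measured genes was 0.01, and 6 and 8 of 25 alternatives lost these calls. Among 22 cardiac muscle genes 0 were called, with a median of 0.06, and Nppb, a natriuretic peptide gene of the heart, differed by 0.35 (adjusted p = 0.0668). Of 9 placenta and decidua markers on the array 1 passed the detection filter, Cyp11a1, which differed by 0.08. Of 15 yolk sac genes on the array 7 passed it and 0 were called. Among 23 Wnt genes Fzd8, a receptor gene, fell by 1.28-fold (lost under 9 of 25 alternatives) and the median was 0.01.

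Further called genes outside these lists were chosen after their values were seen. Cxcr4, the receptor gene for a chemokine that guides migrating germ, blood and neural cells, read 7.89, 7.94, 7.97 and 8.06 in diabetic pools 1 to 4, against 8.36, 8.64, 8.48 and 8.46 in control pools 1 to 4. The groups did not overlap, and the difference was -0.52 ± 0.08 (limma adjusted p = 0.00394). Bdnf, a neurotrophin gene, had values of 7.13, 6.87, 6.82 and 6.76 in control pools 1 to 4 and 6.21, 6.25, 6.52 and 6.56 in diabetic pools 1 to 4, also without overlap, and differed by -0.51 ± 0.11 (adjusted p = 0.0325). Cirbp, an RNA-binding protein gene induced by mild cold, read 8.34, 8.38, 8.34 and 8.43 in diabetic pools 1 to 4, against 8.15, 8.00, 7.75 and 8.03 in control pools 1 to 4 and rose by 0.39. Of 25 alternatives, 2 lost the call of Cxcr4, 11 that of Bdnf and 14 that of Cirbp.

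The next lists, too, were put together after the values were seen, so their counts support nothing by themselves. Among antigen presentation genes, 3 of 13 measured were called higher (0.874% of all genes) and 0 lower, with a median of 0.12. H2-D1, a classical class I gene, differed by 0.37 ± 0.08, H2-M3 by 0.41 ± 0.09 and H2-DMa, which helps load class II molecules, by 0.38 ± 0.07, and 13, 15 and 9 of 25 alternatives lost these calls. The class I light chain gene B2m differed by 0.08 and was not called. Among 16 splicing factor and CLK kinase genes 4 were called lower (1.25% of all genes) and 0 higher, with a median of -0.04. Clk1, a kinase gene for splicing factors, had values of 10.79, 10.65, 10.78 and 10.63 in control pools 1 to 4 and 10.33, 9.94, 10.27 and 10.34 in diabetic pools 1 to 4. Its groups did not overlap, and it differed by -0.49 ± 0.09 (limma adjusted p = 0.0228). Srsf6 and Rbm25 each differed by -0.32, and Snrnp48, whose groups overlapped, by -0.61 ± 0.14 with -0.02 at a further probe. Of 25 alternatives, 7 lost the call of Clk1, 12 that of Srsf6, 13 that of Rbm25 and 16 that of Snrnp48.

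Other rises named by rule were those of Dera, which encodes an aldolase of deoxyribose phosphate (0.68 ± 0.13), Dync1li1, a dynein subunit gene (0.57 ± 0.10), Fst, which encodes an antagonist of activins (0.47 ± 0.11), Fbxo2, a ubiquitin ligase adaptor gene (0.45 ± 0.07), Mgarp (0.51 ± 0.11), Ccdc115 (0.47 ± 0.07), Ly6e (0.44 ± 0.09) and Cyp20a1 (0.60 ± 0.14). Of 25 alternatives, 1 lost the call of Fbxo2, 3 that of Ccdc115, 7 that of Dync1li1, 9 that of Dera, 11 that of Mgarp, 13 that of Ly6e, 16 that of Fst and 16 that of Cyp20a1. Zw10, a kinetochore gene, was undetected in all control pools and at least 1.25-fold higher, lost under 13 of 23 alternatives. It passed the detection filter through the diabetic pools alone. Among the falls, Rpap1, which encodes a partner of RNA polymerase II, differed by -0.72 ± 0.11, and Ifngr2, an interferon gamma receptor gene, by -0.66 ± 0.11, with -0.07 and -0.13 at further probes of Ifngr2. The calls of Rpap1 and Ifngr2 were each lost under 2 of 25 alternatives. Gjd4, a connexin gene, was at least 1.17-fold lower, with no diabetic pool above detection, and lost its call under 16 of 23 alternatives. It passed the detection filter through the control pools alone.

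**Figure D4:**
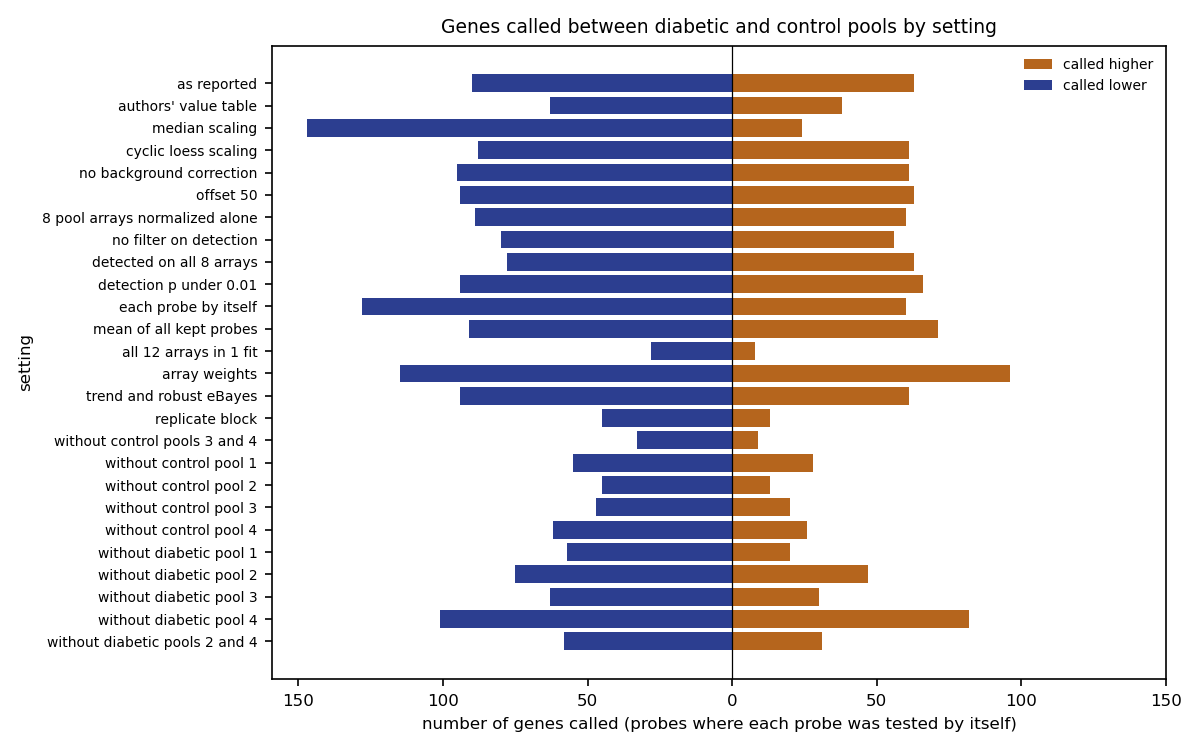
Number of genes called higher (right) and lower (left) between diabetic and control pools as reported and under 25 alternative settings (y axis). Falls outnumber rises in each setting, and the bars are shortest with all 12 arrays in 1 fit (8 higher, 28 lower) and without control pools 3 and 4 (9 higher, 33 lower).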

How the data were processed

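Per the file headers, the authors deposited mean probe intensities for each array, not background-corrected, a detection p-value per probe and array, and other columns with bead standard errors and bead numbers. GenomeStudio is named in the submitters' processing notes, and its version is not given in the sources used here. The series' value table, deposited by the authors as intensity after background subtraction, ranked probes like the raw table on 12 of 12 arrays. Its scaling method is unknown, and it served as an alternative.

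Intensities of all 12 arrays were background-corrected from the detection p-values, given an offset of 16, quantile-scaled and taken to log2 (the neqc steps in limma 3.58.1, R 4.3.3). Of 32766 probes 13532 passed the detection filter, 11010 of them with 1 gene symbol. Each of 7211 genes was represented by its probe of highest mean intensity. The 8 pool arrays were fitted with lmFit and eBayes, with no covariate, and two-sided p-values were adjusted by Benjamini-Hochberg. The number of arrays limits precision: the median 95% interval of a difference was ± 0.19 on the log2 scale. A probe undetected on all arrays of a group has only a bound, computed from the lowest detected signal per array and written as at least N-fold. The bound holds for the probe, background correction and offset used. Among the called genes, 7 were undetected in a whole group and passed the filter only through the group where they were higher. For them the filter favours the direction reported.

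Members and lists were chosen with earlier results of these data known, and 1 histone symbol was corrected after the list was matched. Genes were named by rule: the 20 biggest called rises and 20 biggest called falls whose groups did not overlap, 5 further falls that were not histones, called members or up to 3 smallest p per list, genes undetected in one group, and Kdm5d. Genes with clone names were counted only. Promoter windows were shortened to 250 bases after the full windows had been counted. The fit was run on simulated data of these 7211 genes, with 50 genes changed at each size. Of these, 42% were recovered at 0.3, 82% at 0.5, 94% at 1 and 100% at 1.5 on the log2 scale. There were 10 false calls in all. How far these rates carry over to the measured pools, where genes can vary together within a pool, was not tested. Pool numbers did not pair the pools: 0 of 4 same-number correlations of deviations exceeded 0.1. Alternatives covered scaling, background, offset, filter, probe choice, arrays in the fit, weights, a replicate block and pools left out.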

Additional observations from a re-analysis of the deposited data

Results flagged for a closer look

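Of 342 groups of 4 pools examined over 171 named genes, 25 held a pool apart from the other 3 by Dixon's criterion, which chance alone meets in about 1 of 20 groups. Among histones, H2bc11 stood at 8.43 in diabetic pool 1 against 8.96 to 8.97 in the others, H1f5 at 7.30 and H4c6 at 7.45 in control pool 2. Diabetic pool 2 stood apart for Enah (6.82, low), Mrc1 (6.08, low), Hoxc9 (9.30, low), Igf1 (7.70, low), Akap9 (9.95, low) and Gata4 (6.0, high), and diabetic pool 3 for Aurkb (10.69, high). Control pool 1 stood apart for Rbfox3 (5.83, low) and Aldoc (6.55, high), and control pool 2 for Greb1 (9.17, low). Control pool 3 was low for Eno3 (10.21), Ddit4 (8.63), Hoxb1 (7.11) and Naglu (6.69). Control pool 4 was high for Etv4 (8.40), Gstm1 (7.78) and Msx1 (10.74) and low for Hsd17b7 (10.13) and Gad2 (5.05). Among antigen presentation genes, H2-DMa was high in control pool 1 (5.98), H2-D1 low in control pool 2 (7.66) and H2-M3 high in diabetic pool 1 (6.06, against 5.75 in the others).

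Among 2518 kept probes that the annotation does not list, 43 were called between diabetic and control pools over all 13532 kept probes, 13 higher and 30 lower (1.71%). Their genes were not named here.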

How the results depend on the processing

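Of 92 called genes named by rule or after their values were seen, 21 kept their call under all alternatives run for them, 71 lost it under at least 1, and 0 changed direction; 13 uncalled named genes passed under at least 1. Against 153 genes as reported (63 higher, 90 lower), the authors' value table called 101 (38 higher), all 12 arrays in 1 fit 36 (8 higher, 28 lower), array weights 96 higher, and median scaling 24 higher and 147 lower. The count of falls of at least 2-fold, 22 as reported, was 17 with detection required on all 8 arrays. It was 13 without background correction and 12 with an offset of 50. Without control pools 3 and 4 the count was 42 (9 higher, 33 lower), and without diabetic pools 2 and 4, the pair farthest apart and an alternative chosen after seeing the data, it was 89 (31 higher, 58 lower). Leaving out 1 pool gave 58 to 183 genes in all, 13 to 82 higher and 45 to 101 lower. With the pool number as a replicate block, which the deviations do not bear out as a pairing (correlations of -0.12, -0.27, 0.08 and -0.21), 58 genes were called (13 higher, 45 lower). The cause of these differences was not tested, except that leaving out pools also lowers the number of samples. The 4 pools per group and signals near background limit the sizes of weak genes.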

Other observations

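Of the 153 called genes, 10 carry clone or locus names. Among them 3 predicted genes assigned to chromosome 14 by RefSeq names, chosen after their values were seen, were higher: Gm5797 by 0.90 ± 0.12, Gm3696 by 0.74 ± 0.08 and Gm5796 by 0.66 ± 0.09 (SE, n = 4 per group). Gm3696 had log2 intensities of 6.22, 6.06, 6.01 and 6.0 in control pools 1 to 4 and 6.77, 6.99, 6.68 and 6.79 in diabetic pools 1 to 4. No pool of either group overlapped with the other for these genes. All 3 calls were lost with all 12 arrays in 1 fit. The noncoding transcript 6430411K18Rik differed by -1.22 ± 0.08, a size that is inexact because 2 of the 4 diabetic pools lay below detection.

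Further called genes were picked singly after their values were seen and stand for no group. Cbx8, which encodes a subunit of Polycomb repressive complex 1, differed by -0.45 ± 0.07, and Epop, which encodes a partner of Polycomb repressive complex 2, by 0.35 ± 0.07. Kbtbd8, an adaptor gene for a ubiquitin ligase in neural crest formation, differed by -0.59 ± 0.12, with -0.55 and -0.50 at further probes. Of 25 alternatives, 2 lost the call of Cbx8, 9 that of Epop and 12 that of Kbtbd8.

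Of 59 further probes of 41 called genes, 55 moved in the called direction, 34 of them at an unadjusted p under 0.05, and 4 moved in the opposite direction.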
